A study of Mus musculus with 12 samples.

Results

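Glycolysis and hypoxia response genes were followed across the mammary glands, tumors and cancer cell lines of a mouse model of breast cancer. The members are a list of 30 named genes, and every probe set annotated to them was taken, out of 12393 genes with a probe set of their own on the array. Of the 30, 27 had at least 1 probe set naming that gene alone (53 probe sets). Gapdh was represented by 2 probe sets that also name other genes and by 3 control probe sets, and Gpi1 and Eno1 are not analysed here. The mice were female NMRI animals, an outbred strain. Normal glands came from NMRI mice on day 1 of lactation, and transgenic glands from WAP-SVT/t mice of the same strain and day, in which the SV40 T/t antigens are made selectively in mammary epithelial cells. WAP is the whey acidic protein gene, whose promoter is active in milk-producing cells during pregnancy and lactation. The tumors were breast cancers of WAP-SVT/t mice, and the 3 cancer lines were ME-A, a line called ME-B that the labels give as a revertant, and its retransformed counterpart ME-B-T/t. The NMRI glands, transgenic glands and tumors had 3 arrays each and each line had 1 array. The labels number the gland samples without naming mice, so the p-values measure the spread between these samples.

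Glycolysis splits glucose into pyruvate in the cytosol. Lactate dehydrogenase turns pyruvate into lactate, which monocarboxylate transporters carry across the cell membrane, while the pyruvate dehydrogenase complex passes it to the mitochondria. When oxygen is low, prolyl hydroxylases no longer mark the HIF-1α protein for destruction, and HIF raises transcription of most glycolytic enzymes and of genes for acid balance, vessel growth, autophagy and collagen modification. HIF-1α is controlled mainly as a protein, so the mRNA levels measured here do not measure it. Lactating mammary epithelium takes up much glucose to make lactose and milk fat. Several glycolytic steps have tissue-specific isoforms, such as Pfkm for phosphofructokinase in muscle.

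RNA quality and tissue composition were not alike on all arrays. The ratio of the 3′ to the 5′ Gapdh control signal, which rises when RNA or cDNA is shortened, was 12.9, 2.28 and 40.3 in NMRI glands 1, 2 and 3, and 10.7, 2.49 and 22.5 in transgenic glands 1, 2 and 3. It was 5.63, 0.982 and 0.969 in tumors 1, 2 and 3, and lay between 0.753 and 0.949 in the lines. Of 23 skeletal muscle markers 22 were on the array, and their summed signal was 16100 to 33700 in NMRI glands, 2030 to 31700 in transgenic glands, 891 to 18800 in tumors and 1370 to 1410 in the lines. Transgenic gland 3 and tumor 1 held the high ends of the last 2 tissue ranges. The summed adipocyte signal (11 of 13 markers) was 33200 to 46900 in NMRI glands, 34800 to 63800 in transgenic glands and 1590 to 17800 in tumors. Epcam, which marks epithelium, was at 5308 in ME-A but at 9.051 in ME-B and 13.17 in ME-B-T/t, and Krt18 was at 2393, 40.48 and 55.03. The 2 ME-B lines thus lacked defining epithelial markers. Luminal and milk markers summed to 95900 to 109000 in NMRI glands, 59600 to 63800 in transgenic glands and 27600 to 39500 in tumors, with 7 of 11 lower in tumors than in NMRI glands. Among them the milk gene Wap was at 14800 to 16610 in NMRI glands and 90.33 to 119.2 in tumors. Epcam was at 4465 to 7139 and 5868 to 5999 there, Krt8 at 3249 to 5456 and 3577 to 5318, and Krt18 at 3323 to 8408 and 3785 to 6692. These 3 thus overlapped between NMRI glands and tumors. Macrophage markers summed to 5160 to 7120 in NMRI glands, 7900 to 12800 in transgenic glands and 11300 to 14500 in tumors. Of 10 macrophage markers tested, 3 were higher in transgenic glands and 6 in tumors, both against NMRI glands. The luminal and milk sums follow the order of the tissues in which members such as Plod2, Slc16a1 and Ndrg1 are graded below. Macrophage sums were larger in transgenic than in NMRI glands, but those of transgenic glands and tumors overlapped. Between these last 2 groups 0 of 10 macrophage markers were called (median 0.15). The part of these cell types in the graded members was not tested. In bulk tissue, fewer cells of a type and less RNA per cell cannot be told apart.

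HIF binds DNA at a short core, ACGTG or GCGTG, and the 250 bases before each gene start were searched for both, on either strand, in the RefSeq promoter table (mouse build GRCm38.p6). Of the members 28 were in that table, with 40 starts. Plod2 and Ndrg1 had no entry. Either core lay upstream of 26 of the 28 members, and 33 of their 40 promoters held one, against 38.6% of all 32851 promoters and 44% of the 21263 promoters of protein-coding genes. ACGTG alone lay in 19 of the 40, against 16.6% of all promoters. The sequence CACGTG, which holds ACGTG on both strands and is also the core of the E-box, lay in 5 of the 40 against 6.02%. A match is a description of these letters and not a site. The windows below are 100 bases long, 5′ to 3′ on the strand of the gene, and capitals mark ACGTG or GCGTG, or CACGT or CACGC where the core lies on the other strand. They are shown because they belong to members that were higher, lower or not called in tumors. Ddit4, P4ha1, Egln3, Car9 and Slc16a3 were higher in tumors than in NMRI glands:
Ddit4, chr10:59951858-59951957, minus strand: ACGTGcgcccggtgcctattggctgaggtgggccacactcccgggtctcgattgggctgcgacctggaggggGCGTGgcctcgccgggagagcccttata
P4ha1, chr10:59323133-59323232, plus strand: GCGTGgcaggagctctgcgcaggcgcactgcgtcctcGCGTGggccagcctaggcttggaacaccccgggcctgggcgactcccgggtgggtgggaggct
Egln3, chr12:54204004-54204103, minus strand: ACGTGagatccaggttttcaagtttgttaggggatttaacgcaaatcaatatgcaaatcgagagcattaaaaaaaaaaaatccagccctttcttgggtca
Car9, chr4:43506926-43507025, plus strand: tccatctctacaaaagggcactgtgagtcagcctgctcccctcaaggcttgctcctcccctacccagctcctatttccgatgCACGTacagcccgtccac
Slc16a3, chr11:120948967-120949066, plus strand: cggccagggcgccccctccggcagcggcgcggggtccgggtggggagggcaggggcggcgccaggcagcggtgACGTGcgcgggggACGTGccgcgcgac
Slc16a1 and Pdk1 were lower there:
Slc16a1, chr3:104638464-104638563, plus strand: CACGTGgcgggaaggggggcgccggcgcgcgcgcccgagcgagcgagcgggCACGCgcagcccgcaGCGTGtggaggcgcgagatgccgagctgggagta
Pdk1, chr2:71873124-71873223, plus strand: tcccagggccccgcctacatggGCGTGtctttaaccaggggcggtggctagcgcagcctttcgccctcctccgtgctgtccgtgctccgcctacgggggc
Bnip3 and Ldha (first of 2 starts) were not called:
Bnip3, chr7:138909524-138909623, minus strand: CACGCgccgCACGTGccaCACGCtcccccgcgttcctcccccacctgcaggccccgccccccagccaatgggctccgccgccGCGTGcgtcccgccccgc
Ldha, chr7:46845704-46845803, plus strand: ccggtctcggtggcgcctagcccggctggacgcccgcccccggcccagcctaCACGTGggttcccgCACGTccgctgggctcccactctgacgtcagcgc
Of the members with an entry, a core was present in 7 of 8 higher in tumors than in NMRI glands, in 4 of 4 lower and in 12 of 12 not called. Tpi1, which was higher, had none in its window. Since nearly all of these members held a core, its presence could not divide them by their direction in tumors.

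Differences between tissues were tested with limma's moderated test on log2 signals over all 7898 genes that passed a filter on low signals, with Benjamini-Hochberg adjustment over those genes and a threshold of 0.05 on the adjusted p. Below, higher, lower, rose and fell are used of members past that threshold. Differences are given as log2 ± SE, and signals below a floor of 57.5 were raised to it in the tests, though they are printed as measured. The filter was passed by 26 members, all with a gene-specific probe set but Adm. Between transgenic and NMRI glands 5 of the 26 were called, 1 higher and 4 lower, where 10.1% of all genes were called (6.05% higher and 4.03% lower). Between tumors and transgenic glands 4 were called, all higher, where 2.95% of all genes were called (1.24% higher and 1.71% lower). None was called lower, with 2 lower at an unadjusted p under 0.05. Between tumors and NMRI glands 14 were called, 9 higher and 5 lower, where 24.6% of all genes were called (12.9% higher and 11.7% lower). The members' median difference was -0.12, 0.37 and 0.36 in these comparisons, beside 0.01, 0 and 0.02 over all genes. Groups did not overlap for 3 members higher and 7 lower in transgenic than in NMRI glands, beside 16.3% and 14.8% of all genes. For tumors against transgenic glands these counts were 12 and 2, beside 8.79% and 10.9%, and for tumors against NMRI glands 11 and 5, beside 22.4% and 21.5%. Where probe sets are tested on their own below, 9.16%, 2.31% and 23% of all probe sets were called in the 3 comparisons. The comparisons share arrays, so they are not independent of each other. Leaving out 1 array moved the first count to 3 without NMRI 1, NMRI 3 or transgenic 2 and to 2 without NMRI 2. The second count went to 2 without transgenic 3 and to 1 without tumor 2. The third stayed between 11 and 14. Calls over all 7898 genes moved too. In the first comparison they went from 796 to 430, 699, 602 and 466 in the fits named, in that order. In the second they went from 233 to 132 and 87, and in the third from 1946 to between 1298 and 2281.

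**Figure D1:**
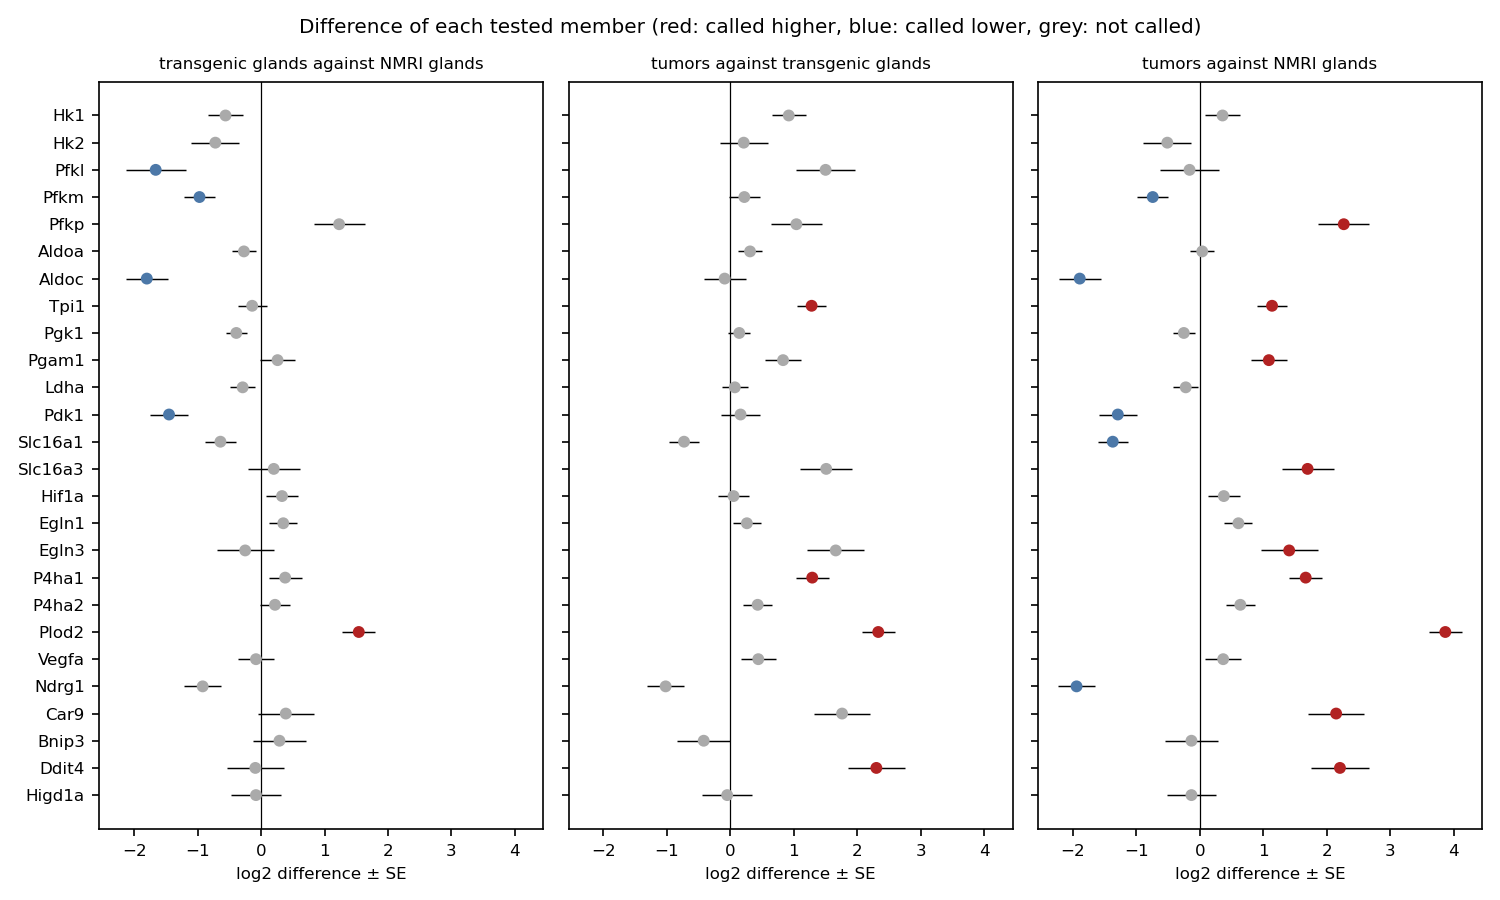
Log2 difference ± SE (x axis) of each of the 26 tested members (rows) in the 3 tissue comparisons (panels); red points were called higher, blue called lower and grey not called. Transgenic against NMRI glands, 1 member is red and 4 are blue; tumors against transgenic glands, 4 are red; tumors against NMRI glands, 9 are red and 5 blue.

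Of the collagen hydroxylases Plod2 had the largest difference of any member in tumors against NMRI glands. Plod2 is lysyl hydroxylase 2, which modifies collagen lysines in the telopeptides so that stable cross-links form. Its signals were 106.5, 97.56 and 114.6 in NMRI glands (arrays 1, 2 and 3, in that order here and below), 287.7, 332.4 and 305.4 in transgenic glands, and 2231, 1361 and 1232 in tumors. The 3 groups did not overlap in either step. Plod2 was 2.91-fold higher in transgenic than in NMRI glands (1.54 ± 0.26, adjusted p = 0.00311) and 5.04-fold higher in tumors than in transgenic glands (2.33 ± 0.26, adjusted p = 0.00117). Tumors exceeded NMRI glands by 14.6-fold (3.87 ± 0.26, adjusted p = 4.52e-06). It was the only member called in all 3 tissue comparisons, and its second probe set gave 2.14, 2.43 and 4.57, each past the threshold. The calls of the first probe set held in every setting tried and without any 1 array.

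P4ha1, the catalytic subunit of the prolyl 4-hydroxylase that stabilises the collagen helix, rose in tumors. Its signals were 129, 104.1 and 118.9 in NMRI glands, 189.3, 162.5 and 114.4 in transgenic glands and 428.1, 310 and 383.9 in tumors. Every tumor exceeded every gland with this probe set. Another P4ha1 probe set did not pass the filter of the tissue tests. It read 58.24 to 79.76 in NMRI glands, 28.33 to 75.39 in transgenic glands and 48.37, 145.7 and 199.6 in tumors, so its groups overlapped. With the tested probe set the difference was 1.67 ± 0.26 against NMRI glands (adjusted p = 0.00117) and 1.29 ± 0.26 against transgenic glands (adjusted p = 0.027). The second call was lost without transgenic 3 or without any 1 tumor, with adjusted p from 0.0576 to 0.0767. It was also lost with the Gapdh control ratio as a covariate (adjusted p = 0.0909, or 0.206 with the sample number as a block too), with only the 2 groups fitted (adjusted p = 0.0852) and with no filter (adjusted p = 0.0936). Its paralogue P4ha2 was between 112.6 and 152 in the 6 glands and between 165.5 and 196.7 in tumors, groups that do not overlap, and its difference from NMRI glands was 0.64 ± 0.23 (adjusted p = 0.0639).

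Among the oxygen sensors, Egln3 was higher in tumors than in NMRI glands while Hif1a and Egln1 were not called. Egln1 and Egln3 encode the prolyl hydroxylases PHD2 and PHD3, and Egln3 is itself a HIF target. Egln3 signals were 473.4, 996.5 and 959.6 in NMRI glands, 851.1, 347.8 and 913.1 in transgenic glands and 2932, 2329 and 1253 in tumors. The glands overlapped each other and every tumor lay above both. The difference from NMRI glands was 1.41 ± 0.45 (adjusted p = 0.0408), and from transgenic glands 1.66 ± 0.45 (adjusted p = 0.0822). The first of these was lost without NMRI 1, 2 or 3, transgenic 1, tumor 1 or tumor 2, with adjusted p from 0.0502 to 0.153. It was also lost with no filter (adjusted p = 0.122) and with the sample number as a block (1.41 ± 0.49, adjusted p = 0.0597). A second Egln3 probe set gave 3.28 ± 0.70 against NMRI glands (adjusted p = 0.00769). Hif1a, which encodes the HIF-1α subunit, had 1166 to 1479 in NMRI glands, 1408 to 1879 in transgenic glands and 1211 to 2151 in tumors. Egln1 was at 299.8, 333.4 and 401.1 in NMRI glands, 458.9, 391.2 and 460.9 in transgenic glands and 576.7, 480.1 and 517.3 in tumors. Every tumor exceeded every gland with this probe set, but the difference from NMRI glands was not called (0.61 ± 0.22, adjusted p = 0.0627). A second Egln1 probe set overlapped between the groups. It read 211.3 to 311.4 in NMRI glands, 124.9 to 346 in transgenic glands and 163.1 to 345.2 in tumors. Its difference of tumors from NMRI glands was -0.09. The ranges of Hif1a overlap, and its difference of tumors from NMRI glands was 0.38 ± 0.25 (adjusted p = 0.3).

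The effectors of the hypoxia response split by direction. Car9 and Ddit4 rose, Ndrg1 fell, and Vegfa, Bnip3 and Higd1a were not called in any tissue comparison. Ddit4, also called REDD1, restrains mTORC1 under stress. Its signals were 256.6, 405.8 and 212.6 in NMRI glands, 178.1, 567.8 and 179.9 in transgenic glands and 1217, 1844 and 978.1 in tumors. All tumors were above all glands, and transgenic 2 was the highest gland. The difference was 2.30 ± 0.45 against transgenic glands (adjusted p = 0.021) and 2.21 ± 0.45 against NMRI glands (adjusted p = 0.00513). Against transgenic glands the call was lost without transgenic 1, transgenic 3 or tumor 2 (adjusted p from 0.0791 to 0.107). It was also lost with the Gapdh control ratio as a covariate (1.66, adjusted p = 0.115), with only the 2 groups fitted (adjusted p = 0.0673) and with no filter (adjusted p = 0.147).

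Car9, a membrane carbonic anhydrase that helps cells export acid, had signals of 107.1, 128.4 and 45.66 in NMRI glands, the last below the floor. Transgenic glands had 156.7, 150.7 and 75.58, and tumors 606.8, 486.8 and 235.9. Every tumor exceeded every gland. Car9 was 4.45-fold higher in tumors than in NMRI glands (2.15 ± 0.44, adjusted p = 0.00514), and its difference from transgenic glands was 1.76 ± 0.44 (adjusted p = 0.0615). Within each tissue, array 3 was the lowest. With the sample number as a block the difference from transgenic glands was past the threshold (1.76 ± 0.24, adjusted p = 0.00763). Tumor numbers did not pair with glands over all genes, however.

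Ndrg1, which is induced by hypoxia in many cell types and is also high in differentiated epithelium, went the other way. Its signals were 6704, 9884 and 9644 in NMRI glands, 4499, 4544 and 4643 in transgenic glands and 2506, 3250 and 1385 in tumors. The 3 groups formed a descending order without overlap, as did the summed luminal and milk markers, but not Epcam, Krt8 or Krt18 among them. The part of these markers in the Ndrg1 order was not tested. Tumors were 3.84-fold lower than NMRI glands (-1.94 ± 0.29, adjusted p = 0.000743). The step from NMRI to transgenic glands was -0.92 ± 0.29 (adjusted p = 0.0669), and it was past the threshold when the 6 glands were fitted without the tumors, whether without the sample number as a block (adjusted p = 0.0267) or with it (adjusted p = 0.0196). Of the 5 Ndrg1 probe sets all had negative differences between tumors and NMRI glands, from -2.23 to -1.10, and 3 were called. The 2 that were not called varied most within a tissue. One of them read 1000, 3910 and 170.9 in NMRI glands, 698.7, 1542 and 59.48 in transgenic glands and 168.4, 1144 and 353.3 in tumors. In both gland groups the high array was the one with the lowest Gapdh control ratio and the low array the one with the highest. The part of RNA length in these 2 probe sets was not tested.

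Vegfa, the main vessel growth factor of the response, also depended on the probe set. The one that stands for the gene ranged from 291.3 to 452 in NMRI glands, 261.3 to 488.2 in transgenic glands and 439.5 to 548.2 in tumors. The other read 228.1, 253.4 and 206.3 in NMRI glands, 104, 79.73 and 75.3 in transgenic glands and 128.7, 446.3 and 126.6 in tumors. It had the transgenic glands below both other groups without overlap, but its difference from NMRI glands was not called (-1.42 ± 0.44, adjusted p = 0.0719). Bnip3, a mitophagy receptor, spanned 905.1 to 1269 in NMRI glands, 726.1 to 2365 in transgenic glands and 720.4 to 1562 in tumors, so its groups overlapped. Higd1a, a mitochondrial protein of the hypoxia response, spanned 608 to 1884 in NMRI glands and 830 to 1043 in tumors. Adm, the vasodilator adrenomedullin, had no tissue test in the main fit. Its signals were 37.6, 41.21 and 49.57 in NMRI glands, all below the floor, 101.8, 78.44 and 107.7 in transgenic glands and 433.8, 231.3 and 73.27 in tumors. Tumors 1 and 2 lay above every gland and tumor 3 below every transgenic gland, and without a filter the difference of tumors from NMRI glands was 1.76 ± 0.58 (adjusted p = 0.0953).

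**Figure D2:**
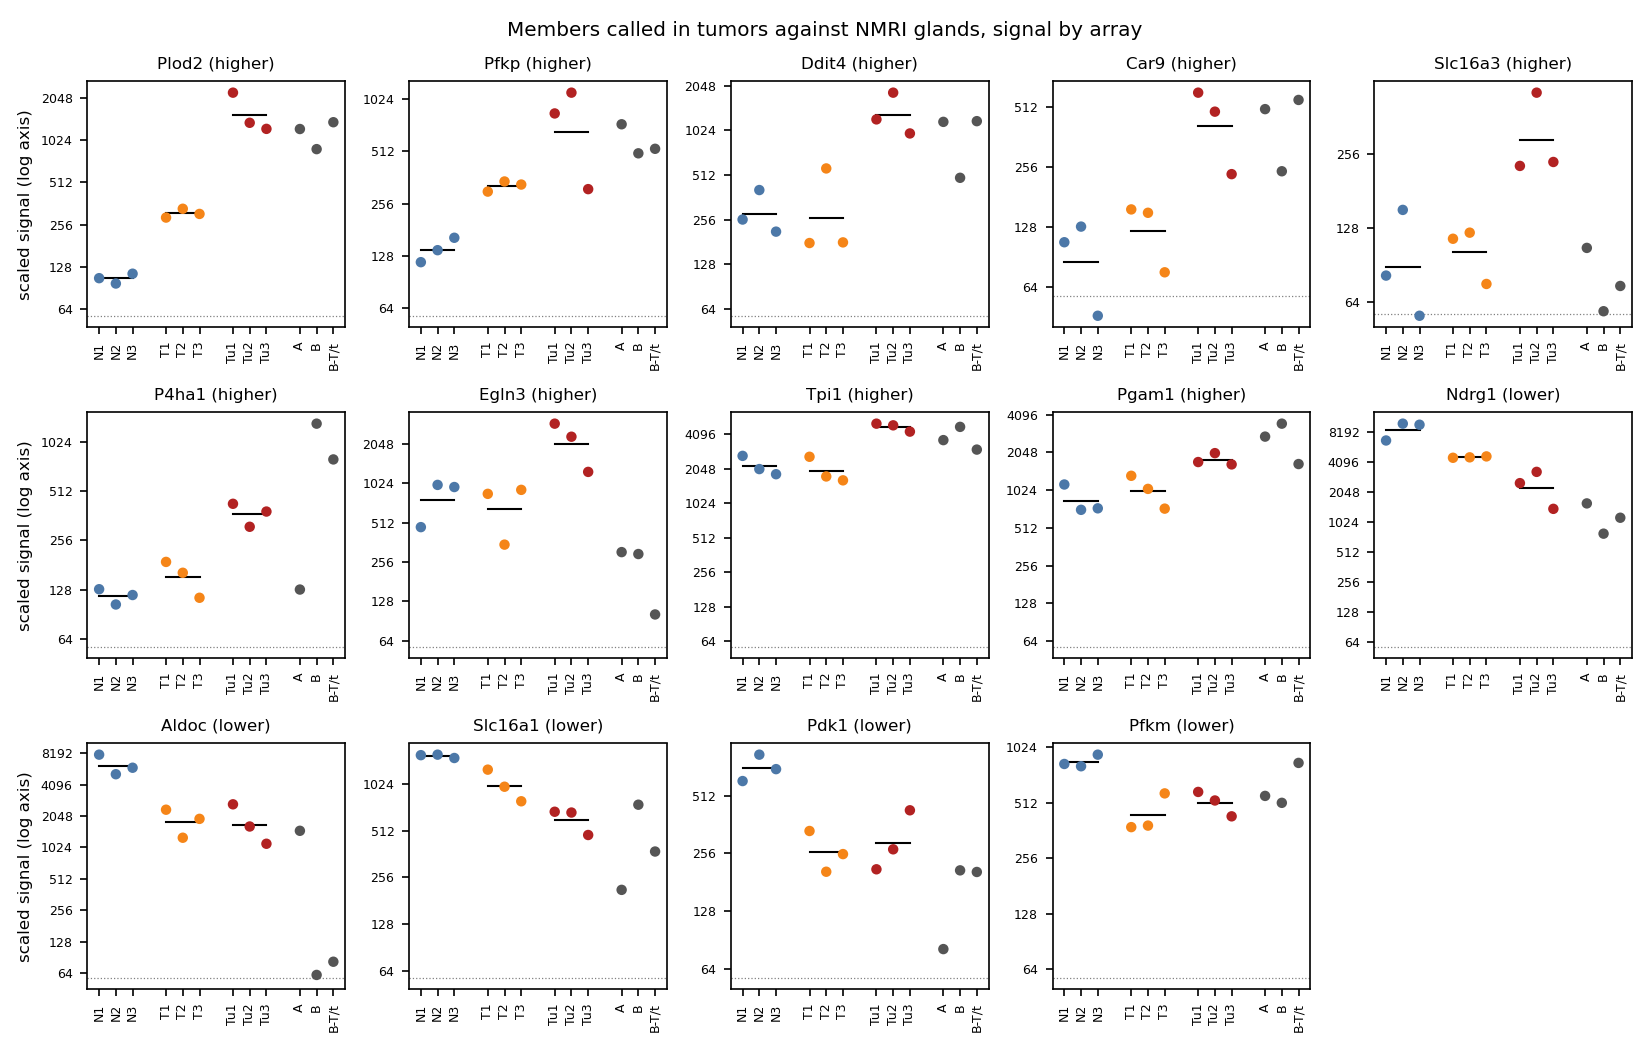
Scaled signal (y axis, log scale) on each array (x axis: N, NMRI glands; T, transgenic glands; Tu, tumors; A for ME-A, B for ME-B and B-T/t for the retransformed line) of the 14 members called in tumors against NMRI glands; black bars are geometric means of 3 arrays and the dotted line is the floor of 57.5. Plod2 and Ndrg1 show 3 separate tissue levels in opposite order, and P4ha1 and Aldoc part the lines, with ME-A at 128.4 and 1478 respectively.

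**Figure D3:**
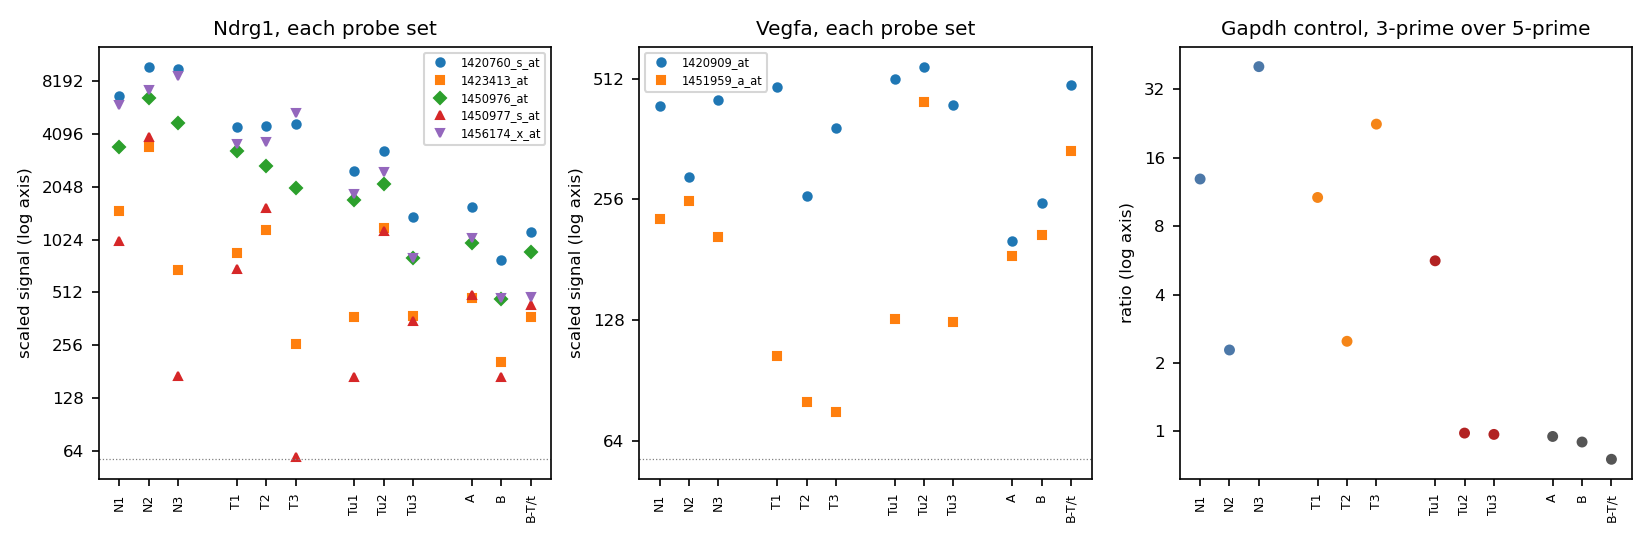
Scaled signal (y axis, log scale) of each probe set of Ndrg1 (left) and Vegfa (middle) on the 12 arrays, labelled as N, T and Tu for the tissues and A, B and B-T/t for the lines, beside the 3′ to 5′ ratio of the Gapdh control (right, log scale). Ratios run from 0.753 in ME-B-T/t to 40.3 in NMRI gland 3, and the 2 Ndrg1 probe sets shown as squares and upward triangles spread furthest among the glands; heights of different probe sets are not comparable.

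Of the upper glycolytic enzymes 8 were tested. Hexokinases, which phosphorylate glucose, were not called in tissues with the probe sets that stand for them. Hk1 ranged from 1259 to 2017 in NMRI glands, 803.8 to 1276 in transgenic glands and 1604 to 2334 in tumors, and its difference of tumors from transgenic glands was 0.92 ± 0.27 (adjusted p = 0.11). A second Hk1 probe set, below the floor on several gland arrays, gave 2.14 ± 0.58 there (adjusted p = 0.0987) and 1.65 ± 0.58 for tumors against NMRI glands (adjusted p = 0.0661). With the mean of all probe sets Hk1 was called higher in tumors than in transgenic glands (1.53, adjusted p = 0.023) and NMRI glands (1.00, adjusted p = 0.0292), and with the Gapdh control ratio as a covariate than in transgenic glands (adjusted p = 0.0498). Hk2 was at 996.1 in NMRI gland 1 and between 281.8 and 490.3 on every other tissue array.

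The 3 phosphofructokinase genes, which encode the main control point of glycolysis, each had a different pattern. Pfkp, the platelet form, was 117.3, 137.6 and 162.3 in NMRI glands, 300, 343.2 and 329.5 in transgenic glands and 848.6, 1119 and 310 in tumors. Tumor 3 sat at the level of the transgenic glands and the other 2 tumors above them, while all NMRI glands lay below the rest. Pfkp was 4.83-fold higher in tumors than in NMRI glands (2.27 ± 0.40, adjusted p = 0.00231). For transgenic against NMRI glands it was 1.23 ± 0.40 (adjusted p = 0.0777), and it was past the threshold when the 6 glands were fitted without the tumors, whether without the sample number as a block (adjusted p = 0.0148) or with it (adjusted p = 0.0154). Without tumor 3 it was called in that comparison (adjusted p = 0.00842) and between tumors and transgenic glands (1.59, adjusted p = 0.0131). Of 15 settings 3 called the difference between the glands, which ranged from 0.58 to 1.39 (adjusted p from 0.00369 to 0.303). Another Pfkp probe set, with several glands below the floor, did not pass the filter of the tissue tests. It read 56.57, 71.2 and 56.02 in NMRI glands, 30.42, 62.28 and 14.78 in transgenic glands and 86.19, 249.4 and 108.9 in tumors. With it the transgenic glands did not lie above the NMRI glands.

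Pfkm, the form typical of muscle, was 829.6, 806.4 and 932 in NMRI glands, 377.1, 384.4 and 574.6 in transgenic glands and 585.2, 525.9 and 431.5 in tumors. Every NMRI gland exceeded all other tissue arrays. Pfkm fell by 0.97 ± 0.24 in transgenic glands (adjusted p = 0.0283) and by 0.74 ± 0.24 in tumors (adjusted p = 0.0466), both against NMRI glands. Skeletal muscle markers moved with it in part. The highest transgenic Pfkm was in gland 3 and the highest tumor Pfkm in tumor 1, the arrays with the highest marker sum of their group (31700 and 18800). In NMRI glands Pfkm was highest in gland 3 and the marker sum in gland 1, and NMRI gland 2, with a sum of 16100, had more Pfkm than either of those arrays. With the markers' mean as a covariate the differences were -0.73 (adjusted p = 0.0796) and -0.45 (adjusted p = 0.276). With the Gapdh control ratio as a covariate they were -0.94 (adjusted p = 0.0228) and -0.5 (adjusted p = 0.251). With the sample number as a block too they were -0.91 (adjusted p = 0.0262) and -0.28 (adjusted p = 0.646). The second was also not called with the block alone (adjusted p = 0.0546) or with each probe set tested on its own (adjusted p = 0.053). Most transgenic glands and tumors had smaller marker sums than the NMRI glands, so the muscle covariate does not separate muscle content from group. The part of muscle cells in the Pfkm differences was not tested. In the lines Pfkm was at 556.9, 510.7 and 840.7. The first call was lost without NMRI 1, 2 or 3 or transgenic 1 or 2 (adjusted p from 0.0753 to 0.0976). The second was lost without any 1 array except transgenic 3 (adjusted p from 0.0522 to 0.14). With no scaling both were lost (adjusted p = 0.0545 and 0.0813), and with only the 2 groups fitted the first was (adjusted p = 0.0508).

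Pfkl, the liver form, was 5609, 2681 and 3283 in NMRI glands, 1905, 1666 and 493 in transgenic glands and 3013, 2745 and 4277 in tumors. The transgenic glands lay below both other groups. The difference from NMRI glands was -1.66 ± 0.47 (adjusted p = 0.0466), and that call was lost without any 1 array except transgenic 1 (adjusted p from 0.0511 to 0.178). With quantile normalisation or the mean of all probe sets it was lost too (adjusted p = 0.0653 and 0.0636). The same held with no filter (adjusted p = 0.144) and with only the 2 groups fitted (adjusted p = 0.0846). It was not called either with each probe set tested on its own (adjusted p = 0.0535) or with no intensity trend (adjusted p = 0.0527). Tumors against transgenic glands were not called (adjusted p = 0.131).

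**Figure D4:**
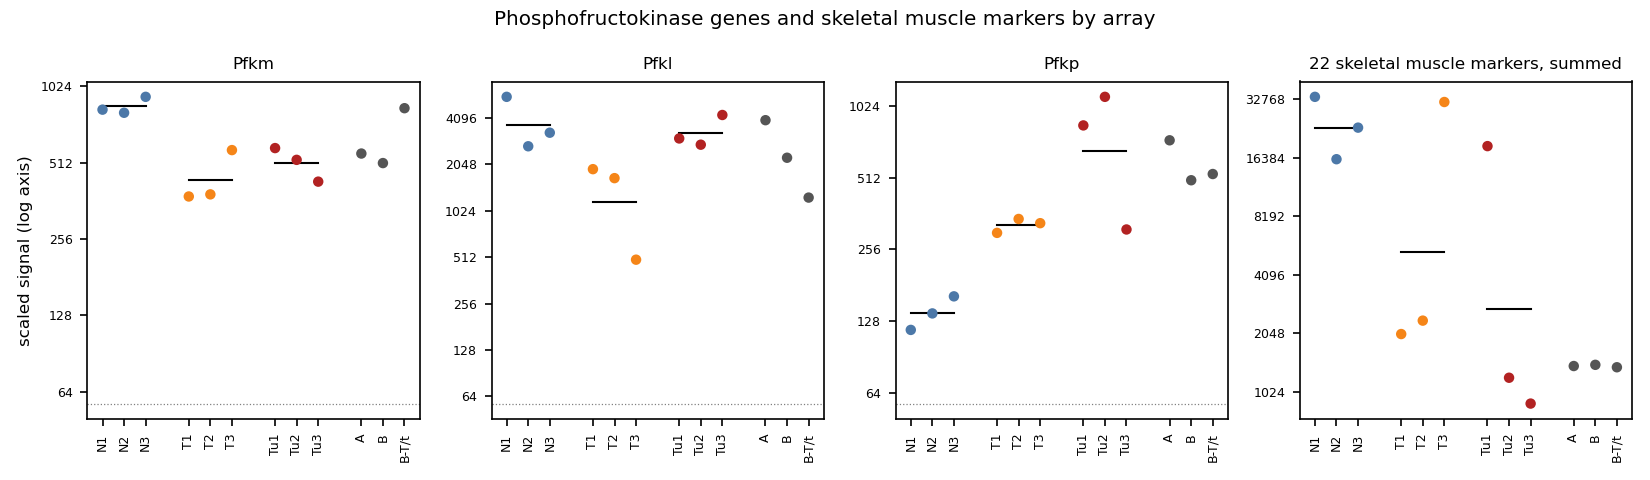
Scaled signal (y axis, log scale) of Pfkm, Pfkl and Pfkp and the summed signal of 22 skeletal muscle markers on each array (x axis, N, T and Tu for NMRI glands, transgenic glands and tumors, A, B and B-T/t for the lines), with geometric group means as bars and the floor of 57.5 dotted in the first 3 panels. Pfkm is highest in the NMRI glands (806.4 to 932), Pfkp lowest there (117.3 to 162.3), and the marker sum of transgenic gland 3 (31700) is far above that of glands 1 and 2.

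The aldolases differed as well. Aldoc, the brain-type form, was lower in transgenic glands and tumors. Its signals were 7946, 5158 and 5952 in NMRI glands, 2355, 1268 and 1924 in transgenic glands and 2653, 1625 and 1110 in tumors. All NMRI glands lay above all other tissue arrays. Aldoc was 3.49-fold lower in transgenic glands (-1.80 ± 0.33, adjusted p = 0.00599) and 3.71-fold lower in tumors (-1.89 ± 0.33, adjusted p = 0.00236) than in NMRI glands. The difference between tumors and transgenic glands was -0.09 ± 0.33. Aldoa, the main form in most cells, lay between 3285 and 5122 on every tissue array and was not called. Those values are of the probe set that stands for the gene. The other 3 probe sets had the transgenic glands below the NMRI glands without overlap, and 1 of the 3 was called there (-1.04 ± 0.27, adjusted p = 0.039). Another was called lower in tumors than in NMRI glands (-0.89 ± 0.26, adjusted p = 0.0306), so the Aldoa probe sets did not give 1 answer.

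Tpi1, triose phosphate isomerase, rose in tumors. Its signals were 2643, 2028 and 1830 in NMRI glands, 2596, 1749 and 1618 in transgenic glands and 5043, 4876 and 4299 in tumors. The glands overlapped and every tumor lay above them. Tumors were 2.43-fold above transgenic glands (1.28 ± 0.23, adjusted p = 0.014) and 2.21-fold above NMRI glands (1.14 ± 0.23, adjusted p = 0.00487), and all 3 probe sets were called in both comparisons. The first of these was not called without tumor 2 (1.26, adjusted p = 0.0709), with no filter (adjusted p = 0.0721) or with the Gapdh control ratio as a covariate (adjusted p = 0.064, or 0.0741 with the sample number as a block too). The second was not called with that covariate and block together (adjusted p = 0.0502).

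In lower glycolysis, Pgam1 was called and Pgk1 and Ldha were not. Pgam1, phosphoglycerate mutase, was 1135, 712.5 and 732.5 in NMRI glands, 1332, 1047 and 728.3 in transgenic glands and 1715, 2020 and 1642 in tumors. Every tumor exceeded every gland. The difference from NMRI glands was 1.09 ± 0.28 (adjusted p = 0.0166), lost without NMRI 2, NMRI 3 or tumor 2 (adjusted p from 0.056 to 0.0622). It was also lost with the muscle markers (0.88, adjusted p = 0.095) or the Gapdh control ratio (adjusted p = 0.0738, or 0.149 with the sample number as a block too) as a covariate. Pgk1, phosphoglycerate kinase, spanned 5155 to 8175 over all 9 tissue arrays, and Ldha, the lactate dehydrogenase subunit raised by HIF, 3849 to 6886. For both, tumors lay within the span of the glands. The 3′ Gapdh control was 5244 to 7305 in NMRI glands, 4937 to 5721 in transgenic glands and 5632 to 6322 in tumors. Its 5′ counterpart spanned 130.1 to 2771 in NMRI glands.

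The 2 lactate transporters moved in opposite directions. Slc16a1 (MCT1) was 1575, 1587 and 1510 in NMRI glands, 1270, 985.1 and 793.4 in transgenic glands and 678.9, 671 and 480.5 in tumors. The 3 groups descended without overlap. Slc16a1 was 2.58-fold lower in tumors than in NMRI glands (-1.37 ± 0.24, adjusted p = 0.00247), and the 2 steps between were -0.64 ± 0.24 (adjusted p = 0.124) and -0.73 ± 0.24 (adjusted p = 0.162). Slc16a3 (MCT4), the form that exports lactate from glycolytic cells and a HIF target, was 82.05, 151.7 and 56.34 in NMRI glands, 115.8, 122.6 and 75.86 in transgenic glands and 228.9, 454.3 and 237.5 in tumors. All tumors exceeded all glands, and NMRI 3 lay below the floor. The difference from NMRI glands was 1.70 ± 0.41 (adjusted p = 0.0114) and from transgenic glands 1.51 ± 0.41 (adjusted p = 0.0812). With the Gapdh control ratio or the muscle markers as a covariate the first was 1.01 (adjusted p = 0.0868) or 1.26 (adjusted p = 0.077), and neither passed the threshold.

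Pdk1, a kinase that switches off pyruvate dehydrogenase and is a HIF target, fell in the transgenic glands. Its signals were 609.6, 836.9 and 703.4 in NMRI glands, 334.8, 205.3 and 253.7 in transgenic glands and 211.4, 268.7 and 429.2 in tumors. All NMRI glands lay above all other tissue arrays. The difference was -1.45 ± 0.30 in transgenic glands (adjusted p = 0.0116) and -1.29 ± 0.30 in tumors (adjusted p = 0.0105). The first call was lost without NMRI 2 (-1.34, adjusted p = 0.0549).

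Other genes of these pathways were counted in 5 lists of 87 genes, of which 52 were tested. Between transgenic and NMRI glands 1 was higher and 7 lower, between tumors and transgenic glands 7 were higher and 4 lower, and between tumors and NMRI glands 10 were higher and 21 lower. These calls were 15.4%, 21.2% and 59.6% of the 52, beside 10.1%, 2.95% and 24.6% of all genes. The lists, like the members, were chosen with earlier results of these data known, so the shares here and below are descriptions only. Of the 9 tested genes of pyruvate entry into mitochondria 8 were lower and 1 higher in tumors than in NMRI glands, with a median of -1.42. All 9 were thus called, beside 24.6% of all genes (12.9% higher and 11.7% lower). The list holds subunits of pyruvate dehydrogenase together with kinases that switch it off, and the kinase gene Pdk4 was among the 8 lower. The count thus mixes genes of opposite effect on pyruvate entry. Pdha1, the catalytic α subunit of pyruvate dehydrogenase, fell from 6205 ± 635 in NMRI glands to 2313 ± 224 in tumors (SD, n = 3; -1.42 ± 0.21, adjusted p = 0.000852). The gene that rose was Pdk3, another pyruvate dehydrogenase kinase, which was below the floor in all NMRI glands, at 262 ± 60.7 in transgenic glands and at 443.8 ± 120 in tumors. Raised to the floor, it was at least 4.47-fold higher in transgenic glands (adjusted p = 0.000558) and at least 7.54-fold higher in tumors (adjusted p = 3.81e-05). Pdk4, a kinase of fasting muscle, fat and liver, was lower in tumors than in transgenic glands (-2.71 ± 0.59, adjusted p = 0.0355), and so moved with the adipocyte sum given above. Its part in that difference was not tested. The citrate cycle enzymes, counted for contrast, had 4 of 19 lower and none higher in tumors against NMRI glands (0 higher and 6 lower at an unadjusted p under 0.05). That was 21.1% called, beside the same 24.6% of all genes.

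Of the glucose transporters, Slc2a1 (GLUT1), the basal transporter and a HIF target, had 1283 ± 614 in NMRI glands, 391.7 ± 91.6 in transgenic glands and 1328 in the mean of tumors. It was lower in transgenic than in NMRI glands (-1.62 ± 0.37, adjusted p = 0.0181). Its later values were chosen after they were seen: it was higher in tumors than in transgenic glands (1.74 ± 0.37, adjusted p = 0.0321) and differed from NMRI glands by 0.12 ± 0.37. Of 23 other hypoxia-induced genes, 8 were higher and 6 lower in tumors than in NMRI glands, with a median of 0.57. That was 60.9% called, beside 24.6% of all genes. The acid-handling enzyme Car12 rose 8.23-fold (3.04 ± 0.30, adjusted p = 4.78e-05). Igfbp3, a binding protein of insulin-like growth factors, rose 7.12-fold from transgenic glands, some of which lay below the floor, to tumors (2.83 ± 0.35, adjusted p = 0.00232), and Ak4, a mitochondrial adenylate kinase, 3.18-fold (1.67 ± 0.24, adjusted p = 0.00476). Plin2, which coats fat droplets and is abundant in lactating cells, fell 7.74-fold against NMRI glands (-2.95 ± 0.23, adjusted p = 9.21e-06). Angptl4, made by fat cells among others, fell 9.51-fold from transgenic glands to tumors (-3.25 ± 0.53, adjusted p = 0.00882), and all 8 tested adipocyte markers had negative differences there. The part of fat cells in these differences was not tested. Rora, a nuclear receptor, fell against NMRI glands (-1.91 ± 0.28, adjusted p = 0.000743). In transgenic against NMRI glands, Tfrc, the transferrin receptor, was lower (-1.88 ± 0.36, adjusted p = 0.00709), as was Pcx, pyruvate carboxylase (-1.62 ± 0.36, adjusted p = 0.0165).

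The 3 lines, taken as a class of different lines against the tumors, had 1 of 27 members called among 7345 genes tested, where 2.3% of all genes were called (0.422% higher and 1.88% lower). The median of the members was -0.33 beside 0 over all genes. Egln3 was at 304.8 in ME-A, 294.7 in ME-B and 101.6 in ME-B-T/t, all below the lowest tumor at 1253. It was 9.79-fold lower in the lines (-3.29 ± 0.51, adjusted p = 0.0206), and its second probe set was called too (2.36% of all probe sets were). The call was lost without tumor 1, tumor 2 or ME-B, with adjusted p from 0.0625 to 0.116. Slc16a3, at 106.3, 58.78 and 74.45 in the lines, also lay below every tumor but was not called (-1.91 ± 0.38, adjusted p = 0.0538). Macrophage markers moved with these differences: their sum was 11300 to 14500 in tumors and 624 to 811 in the lines, with 6 of 11 markers below the floor in all lines. Of the fibroblast and matrix markers 3 of 8 were lower in the lines, with a median of -2.96, and of the endothelial markers 3 of 5. The part of these cells in the results on the lines was not tested. Without ME-A 4 members were called, in a fit that called 808 of all 7345 genes, beside 169 in the main fit. Aldoc (-4.57), P4ha1 (1.47) and Slc16a3 (-2.14) joined Egln3. Plod2, Car9 and Ddit4, which were high in tumors, were not called between lines and tumors. Plod2 was at 1229, 883.8 and 1374 in ME-A, then ME-B, then ME-B-T/t, Ddit4 at 1171, 490.9 and 1184, and Car9 at 501.3, 243.9 and 557.6. The differences from tumors were -0.44 for Plod2, -0.56 for Ddit4 and -0.01 for Car9. Of the pathway lists, Edn1, the vasoconstrictor endothelin, was at least 7.27-fold higher in the lines (adjusted p = 0.00158), with all tumors below the floor. Ldhb, the lactate dehydrogenase subunit of oxidative tissues, fell 5.29-fold (-2.40 ± 0.24, adjusted p = 0.00458) and Lox, which cross-links collagen, 7.79-fold (-2.96 ± 0.31, adjusted p = 0.00513). Igfbp3, below the floor in all lines, was at least 7.99-fold lower (adjusted p = 0.0104).

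Among the lines, each with 1 array and no test, a member counted as different at 2-fold or more. Slc16a3 was too low to be counted, which left 26. Between ME-B and ME-A 11 of 26 passed, 7 higher and 4 lower, where 19.6% of all genes passed (8.8% higher and 10.8% lower). Aldoc was at 1478 in ME-A, 61.21 in ME-B and 81.93 in ME-B-T/t, so the ME-B lines stood close to the floor and 24.2-fold and 18-fold below ME-A. P4ha1 went the other way, at 128.4, 1319 and 798.2, which put ME-B 10.3-fold and ME-B-T/t 6.22-fold above ME-A. The 2 ME-B lines, which also lacked Epcam and Krt18, stood together against ME-A in both genes. Slc16a1 (212.5, 753.9 and 375.8), Pdk1 (81.12, 208.7 and 204.7), Bnip3 (276.7, 773.1 and 912.4) and Hif1a (1088, 2290 and 1914) were likewise lowest in ME-A. Adm was below the floor in ME-A at 46.18, and at 172.3 and 240.6 in the ME-B lines.

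ME-B-T/t against ME-B is the pair that the labels set as retransformed against revertant. Of 26 members 7 passed 2-fold, 2 higher and 5 lower, where 12.4% of all genes passed (7.5% higher and 4.88% lower). Without scaling of the arrays the split was 3 higher and 4 lower. Car9 was 2.29-fold and Ddit4 2.41-fold higher in ME-B-T/t, beside 501.3 for Car9 and 1171 for Ddit4 in ME-A. Hk2 was at 589.7 in ME-B and 188.2 in ME-B-T/t, 3.13-fold lower, and Egln3 was 2.90-fold lower. Pgam1 (3473 and 1653), Higd1a (1159 and 557.1) and Slc16a1 (753.9 and 375.8) were lower by 2.10-fold, 2.08-fold and 2.01-fold, the last just past the limit. Vegfa, at 250.7 and 494, stayed just inside it at 1.97-fold. Between ME-B-T/t and ME-A 9 members passed, 5 higher and 4 lower, where 24.1% of all genes passed (12.6% higher and 11.5% lower). Pfkl at 1246 against 3958 and Egln3 at 101.6 against 304.8 were among the lower ones.

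**Figure D5:**
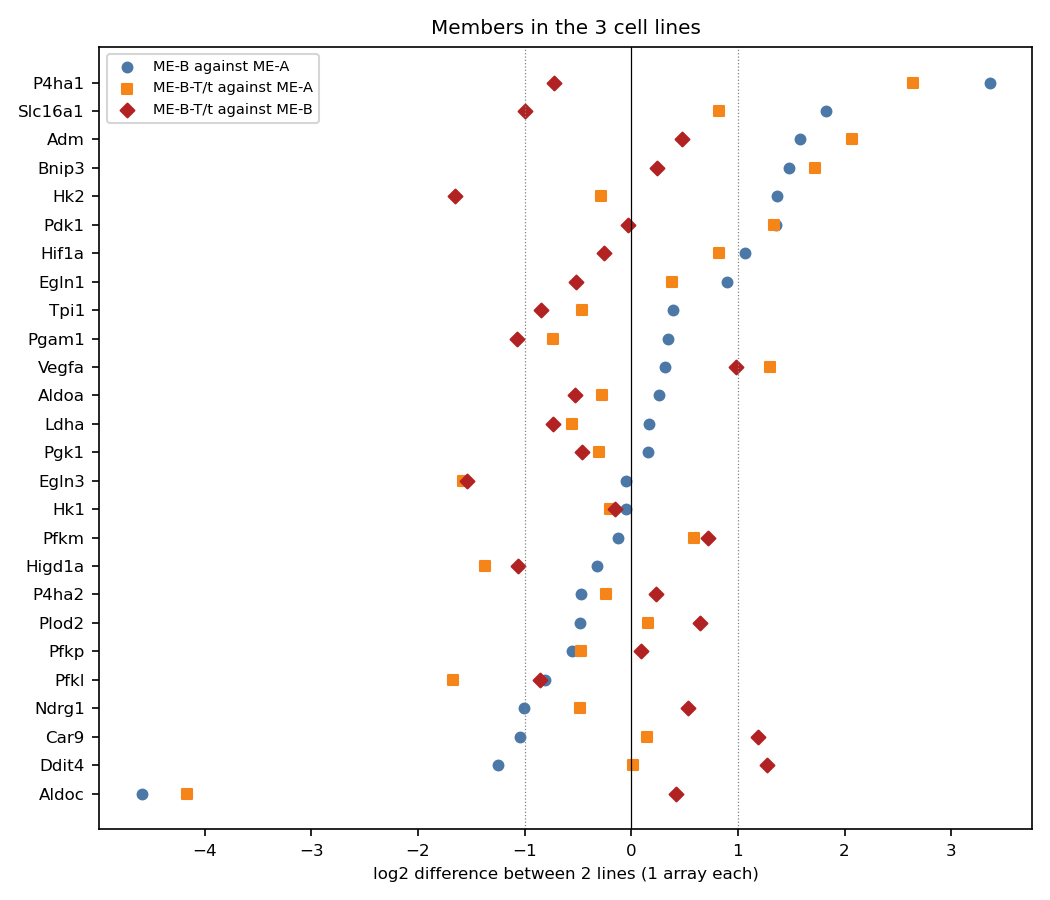
Log2 difference (x axis) of 26 members (rows, ordered by ME-B against ME-A) between pairs of the 3 lines, 1 array each and so without error bars; dotted lines mark 2-fold. Aldoc lies at -4.59 and -4.17 and P4ha1 at 3.36 and 2.64 for ME-B and ME-B-T/t against ME-A, while ME-B-T/t against ME-B stays within 1.65 log2 units for every member.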

How the data were processed

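Biotin-labelled cRNA from total RNA was hybridised to arrays of 22690 probe sets, 1 array per sample, and the deposited values are signal intensities computed by the authors with MAS5, per the submitters' processing notes (version: not given in the sources used here). Members and all other lists were chosen with earlier results of these data known. Each array was scaled to a common 2% trimmed mean, signals below the pooled 30th percentile (57.5) were raised to it, and log2 values were taken. A gene was represented by its probe set of highest mean and kept if 3 arrays of the fit exceeded the pooled median (139.9). Gene names came from the platform annotation: 20380 probe sets had 1 gene, 691 several and 1555 none. The share of probe sets above that floor was 67.7 to 72.6% per array. The number of arrays limits the precision. limma 3.58.1 in R 4.3.3 fitted the 9 tissue arrays as 3 groups, and lines and tumors separately, with the prior variance trended on intensity, and p-values were adjusted by Benjamini and Hochberg's method across every tested gene. The code was tested on simulated data. The text names all members, and of other pathway genes the 3 of smallest p in each direction per comparison. Same-numbered NMRI and transgenic glands deviated together (correlations 0.22, 0.37 and 0.37, from the data; the labels do not state a pairing), so a fit of the 6 glands with the sample number as a block was added after seeing the data. Tumor numbers did not pair with glands. Alternatives covered scaling, floor, filter, probe set choice, trend, block, covariates and leaving out each array. The promoter windows were read by program from RefSeq's table.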

Additional observations from a re-analysis of the deposited data

How the results depend on the processing

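Among 2207 values of single members under all alternatives, 2097 kept their side of the threshold, 77 lost a call and 33 gained one. Values that were not called changed sign in 84 cases, and none that was called did. The count of 14 members between tumors and NMRI glands ranged from 10 to 16 over 14 settings and from 11 to 14 without 1 array. The count of 5 between transgenic and NMRI glands ranged from 4 to 7 over 15 settings and from 2 to 6 without 1 array. The count of 4 between tumors and transgenic glands became 1 with no filter on low signals and 2 with only the 2 groups fitted. It became 2 with the Gapdh control ratio as a covariate, and ranged from 1 to 5 without 1 array. Over all genes, 71 of 12393, 111 of 7898 and 101 of 7898 were called in the 3 settings named, beside 233 of 7898 in the main fit. For the first 2 settings, more genes tested or fewer arrays fitted is part of the setting itself; for the last the cause was not tested. The count of 1 between lines and tumors became 0 with no filter and 0 with 6 arrays required above the median. It became 2 with the mean of all probe sets and 2 with no intensity trend. Over all genes, 91 of 12393, 7 of 5492, 175 of 6647 and 169 of 7345 were called in these settings, in that order. Without 1 array the count ranged from 0 to 4, where 64 to 808 genes were called in all. The cause was not tested. With no scaling the median of all genes between transgenic and NMRI glands moved from 0.01 to 0.11. The replicate block over 9 arrays gave 5, 6 and 12 members in the 3 tissue comparisons, where 930, 283 and 2155 genes were called in all. In the 6 glands alone it gave 7, where 1116 genes were called in all, adding Ndrg1 and Pfkp. These 2 were also called in those glands without the block and not with the block over 9 arrays. Of calls between tissues, Pfkm in tumors against NMRI glands and Pfkl in transgenic against NMRI glands each held in 1 of the 9 fits that left out 1 array, and Egln3 in tumors against NMRI glands in 3 of 9. With 3 arrays per group, signals near the floor limit what can be read from Adm.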
